A study of Rattus norvegicus with 24 samples.

Results

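Vesicle fusion and exocytosis genes were followed on 24 rat midbrain arrays. The genes were taken by symbol: the synaptotagmins (Syt), synaptotagmin-like proteins (Sytl), syntaxins (Stx), syntaxin-binding proteins (Stxbp), vesicle-associated membrane proteins (Vamp), Snap23, Snap25, Snap29 and Snap47, complexins (Cplx), Rab3 and Rab27 GTPases, synaptic vesicle glycoproteins (Sv2), synapsins (Syn), Unc13 and Rims proteins. A probe set, the group of oligonucleotides that reports 1 transcript, was a member when its only gene symbol matched. This gave 101 probe sets of 68 genes in 13 families, out of 31099 probe sets. Of these, 96 probe sets of 67 genes passed a filter on low signals. The 5 that did not were Stx11's only probe set and 1 probe set each of Syt7, Snap29, Vamp5 and Cplx3.

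The rats were Long-Evans females of 50 to 60 days, with total RNA of tissue labelled midbrain hybridised to the arrays. Paced mated rats could control the timing of contacts with a male, and chamber-exposed rats were placed in the clean chamber without a male. There were 12 ovariectomized arrays, of which 6 were from OVX rats and 6 from rats that had also lost the adrenals (OVX/ADX), and both kinds of rats had received 10 µg of estradiol benzoate 44 h before testing, 10 days after surgery. The other 12 arrays were from gonadally intact, proestrous rats in 2 sets that differ in the style of their titles, 6 titled Intact-1 to Intact-6 (Intact-named) and 6 titled with a number (number-named). Each of the 4 sets held 3 paced mated and 3 chamber-exposed arrays by their labels. The study describes 3 rats per condition and 6 intact rats tested, and no label says whether the Intact-named and the number-named arrays came from separate rats, so p-values measure the spread between arrays. The study's account of 1 adrenalectomized rat lost during surgery is not tied by any label to the 6 OVX/ADX arrays.

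Signals were log2 values taken as normalized in 3 runs. No label names a run, and the runs were judged from the lowest signal per array. It was 3.38 to 3.43 on the OVX/ADX arrays, 2.30 to 2.39 on the OVX and Intact-named arrays and 3.58 to 3.65 on the number-named arrays. Signals were tested only within a run. Mating differences, each formed within a set, were also compared between sets of different runs. Between runs, values were set side by side after quantile normalization, as a description with no test, because run, title set, tissue and surgery cannot be told apart there. The labelled tissue was checked with marker genes. After quantile normalization, the median of 11 dopamine neuron markers was 6.98 on OVX and 6.73 on Intact-named arrays (medians of 6 arrays), against 9.06 on OVX/ADX and 9.26 on number-named arrays, while that of 12 cortex and hippocampus markers was 9.63 (OVX) and 9.73 (Intact-named), against 7.43 (OVX/ADX) and 7.18 (number-named). Markers of midbrain dopamine neurons were thus lower, and those of forebrain higher, on 12 of the 24 arrays labelled midbrain. Transcripts of 7 pituitary hormones also set arrays apart. Their median signal was 6.70 to 9.80 on the number-named paced mated arrays and 11.48 to 11.88 on the number-named chamber-exposed arrays, 11.54 on OVX/ADX array 2541 against 6.09 to 6.25 on the other OVX/ADX arrays, and 4.88 to 5.25 on every Intact-named and OVX array. Of the 6 OVX/ADX arrays, 4 are numbered 4123 to 4126, while 2541 (paced mated) and 2530 (chamber-exposed) carry numbers that fall among those of the number-named intact arrays, 2526 to 2543. Whether the labels of these arrays are right could not be settled here.

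Vesicles fuse with the cell membrane when a vesicle SNARE protein (Vamp) zips together with target-membrane SNAREs (a syntaxin and a Snap protein). Unc13, Rims and some syntaxin-binding proteins prepare the vesicle for release, and complexins hold the assembled SNAREs ready. Some synaptotagmins sense the calcium that sets off fusion. Rab3 and Rab27 bring vesicles to the membrane. Sytl4, also called granuphilin, binds Rab27 on dense-core granules and is known in pituitary and pancreatic endocrine cells, whereas Snap25, Vamp2, Stx1a, Syt1 and Cplx1 make up the fast release machinery of neurons.

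Promoter sequences are shown for the 3 genes whose mating differences stood side by side on number-named arrays (Sytl4, Rab3d and Rab27a), and for Cplx2, the member with the smallest adjusted p between OVX and Intact-named arrays. They come from the RefSeq annotation of the GRCr8 build and run from 250 bases before to 50 bases after the gene's start, 5′ to 3′ on the gene's strand. Capitals mark matches, on either strand, to the GC box GGGCGG, the TATA box TATAAA, the cAMP response element half-site TGACG and the oestrogen response element half-site GGTCA. No match of 1 motif overlapped that of another in these windows. The windows lie at chrX:101479102-101479401 (minus strand) for Sytl4, chr8:28725218-28725517 (minus strand) for Rab3d, chr8:82663123-82663422 (plus strand) for Rab27a and chr17:10236704-10237003 (minus strand) for Cplx2.
Sytl4: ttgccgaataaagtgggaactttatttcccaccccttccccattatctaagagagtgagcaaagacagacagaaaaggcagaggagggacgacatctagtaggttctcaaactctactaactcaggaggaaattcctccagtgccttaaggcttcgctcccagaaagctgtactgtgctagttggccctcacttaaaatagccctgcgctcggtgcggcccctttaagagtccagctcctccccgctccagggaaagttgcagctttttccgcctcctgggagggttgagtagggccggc
Rab3d: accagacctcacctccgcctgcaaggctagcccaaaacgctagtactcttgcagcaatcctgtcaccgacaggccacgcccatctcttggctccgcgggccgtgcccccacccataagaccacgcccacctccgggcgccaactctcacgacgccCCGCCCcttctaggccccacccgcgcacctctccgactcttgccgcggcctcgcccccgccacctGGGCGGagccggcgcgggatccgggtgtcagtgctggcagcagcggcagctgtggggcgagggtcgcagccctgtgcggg
Rab27a: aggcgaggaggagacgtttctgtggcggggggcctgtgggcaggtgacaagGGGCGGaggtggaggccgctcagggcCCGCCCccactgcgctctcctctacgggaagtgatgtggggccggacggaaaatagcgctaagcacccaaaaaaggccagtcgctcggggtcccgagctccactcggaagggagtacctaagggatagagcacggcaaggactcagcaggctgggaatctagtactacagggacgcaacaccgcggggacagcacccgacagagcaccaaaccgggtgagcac
Cplx2: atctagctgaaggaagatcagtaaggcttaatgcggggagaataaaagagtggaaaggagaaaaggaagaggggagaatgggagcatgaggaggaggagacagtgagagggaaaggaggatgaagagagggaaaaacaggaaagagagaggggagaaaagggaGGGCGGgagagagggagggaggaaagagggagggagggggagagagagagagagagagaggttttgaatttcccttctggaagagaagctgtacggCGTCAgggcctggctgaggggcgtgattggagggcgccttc
The Sytl4 window held no match to these 4 motifs and had a GC content of 52.7%. Rab3d and Rab27a each held 2 GC boxes, in windows of 71.0% and 64.3% GC. Cplx2 held 1 GC box and 1 cAMP half-site, and 54.0% GC. Of the 68 member genes, 56 had a promoter in the table. A GC box was in 66.1% of these 56 and in 33.1% of all 33469 promoters, and a TATA box in 3.57% and 14.2%. The cAMP half-site was in 30.4% of member promoters and 21.2% of all, and the oestrogen half-site in 33.9% and 40.5%. A match of letters is not a bound site, and these shares are descriptions.

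The members covered a wide span of signals. On each array, a probe set's rank among all probe sets is given as a percentile, which can be followed across sets for the same probe set but not compared between probe sets, since oligonucleotides differ in how strongly they bind. Snap25, the target-membrane SNARE of neurons, had median percentiles of 99.89, 99.96, 99.95 and 99.87 on the OVX/ADX, OVX, Intact-named and number-named arrays. Its signal spanned 13.15 to 13.27 on OVX/ADX, 14.07 to 14.23 on OVX, 13.97 to 14.28 on Intact-named and 13.46 to 13.69 on number-named arrays. Stx11, a syntaxin of immune cells that failed the filter, had 3.97 to 4.12, 3.80 to 4.14, 3.87 to 4.45 and 4.05 to 4.33 on the same sets in the same order. Sytl4 stood at median percentiles of 52.2 on OVX/ADX, 11.0 on OVX, 10.2 on Intact-named and 43.6 on number-named arrays. Syt1, the main calcium sensor of fast release, stood at 92.4 on OVX/ADX, 48.7 on OVX, 48.0 on Intact-named and 92.6 on number-named arrays. Sytl4 and Syt1 thus ranked lower on the OVX and Intact-named arrays than on the other 2 sets.

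**Figure D1:**
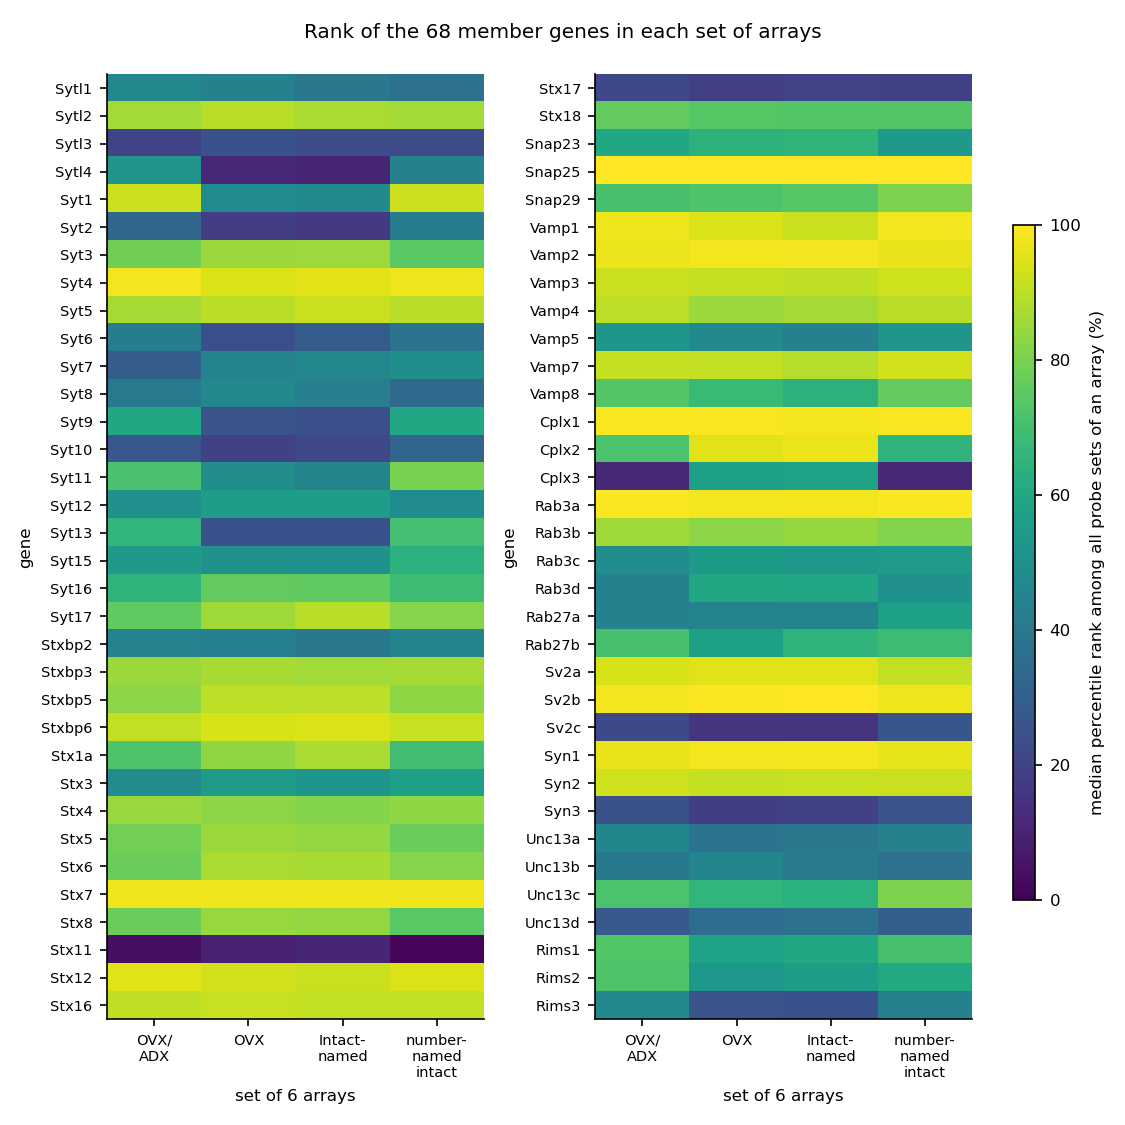
Median percentile rank among all probe sets of an array (%) for 1 probe set, that with the highest mean signal, of each of the 68 member genes (rows, by family) in each set of 6 arrays (columns). Rows are to be read along the sets: Snap25 is between 99.87 and 99.96 in all 4 sets, while Sytl4 is at 52.2 on OVX/ADX, 11.0 on OVX, 10.2 on Intact-named and 43.6 on number-named arrays.

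The first question was whether the release genes differed with paced mating in intact rats. On number-named arrays, no member passed an adjusted p of 0.05 (limma, Benjamini-Hochberg over 27035 probe sets), where 0.0444% of all probe sets did. At an unadjusted p under 0.05, 2 members were higher and 9 lower in paced mated rats, which is 11 of 96, and over all probe sets these shares were 3.7% higher and 5.64% lower. The lower ones were Sytl4, Rab3d, all 3 probe sets of Rab27a, both of Snap23, Stx5 and Vamp8. The higher ones were Rims3, a presynaptic active-zone protein, and Syn1, a synapsin that tethers vesicles. The median difference over the 96 members was 0.06, against 0.01 over all probe sets.

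Sytl4 had signals of 6.57, 6.77 and 6.65 on number-named paced mated arrays, against 7.30, 7.49 and 7.05 on chamber-exposed arrays. All 3 paced mated arrays were below all 3 chamber-exposed arrays. The difference, paced mated minus chamber-exposed, was −0.62 (SE 0.11, adjusted p = 0.133 from limma), and the exact permutation test gave its smallest possible p of 0.1 for 3 against 3 arrays. Rab3d, a Rab3 GTPase of secretory granules in gland cells, had 7.11, 7.07 and 7.11 on paced mated arrays, against 8.42, 7.94 and 7.63 on chamber-exposed arrays. These too did not overlap, with a difference of −0.90 (SE 0.17, adjusted p = 0.140 from limma). Rab27a, the GTPase that Sytl4 binds, had 7.13, 7.17 and 7.63 on paced mated arrays, against 8.65, 8.32 and 7.95 on chamber-exposed arrays. Its difference on probe set 1377669_at was −0.995 (SE 0.19, adjusted p = 0.142 from limma), and its other probe sets differed by −0.79 and −0.59. Sytl4 and Rab3d are both in the gene table of the study, which was drawn up on these samples, so their place among the smallest p-values is not independent evidence. The table gives both genes the opposite direction, and "paced mated" and "chamber-exposed" stand throughout for the label that each array carries. It also lists pituitary hormones, among them Gh1, Prl and Lhb, in the opposite direction to that on these arrays, and whether their labels are right could not be settled. When chamber-exposed array 2539 was left out, 2 members passed the threshold, Rab3d with −1.09 (adjusted p = 0.0491 from limma) and Rab27a probe set 1384852_at with −1.07 (adjusted p = 0.0231 from limma). With all 24 arrays in 1 fit, Sytl4 alone passed on these arrays, with an adjusted p of 0.0413 from limma.

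Markers of the pituitary differed between the same arrays. All 7 pituitary hormone genes were lower on the number-named paced mated arrays at an unadjusted p under 0.05, with a median difference of −2.20, and 1 of them passed an adjusted p of 0.05. Of 10 other anterior pituitary genes, all 10 had negative differences and 8 were lower at an unadjusted p under 0.05 (median −0.66). Of 47 other vesicle release genes tested, among them synaptophysin and its relatives, active-zone proteins and exocyst subunits, none passed the adjusted threshold, and 1 was higher and 2 lower at an unadjusted p under 0.05. Chgb, a granule core protein from the list of 14 secretory granule genes, differed by −0.71 (SE 0.11, adjusted p = 0.0829 from limma), and the median of that list was −0.02. The part of pituitary transcripts in the differences of Sytl4, Rab3d and Rab27a was not tested, and fewer cells of a type cannot be told apart from less RNA per cell in such samples.

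By role, the differences on number-named arrays were uneven, and markers of neurons and brain regions differed between the same arrays. Of 12 cortex and hippocampus markers 11 had positive differences (median 0.18), as did 11 of 12 markers of neurons in general (median 0.08), and all 11 dopamine neuron markers had negative differences (median −0.39). The median signal of the cortex and hippocampus markers was 8.26 on paced mated array 2543 and 7.26 to 7.52 on the other 5 arrays. Their part in the differences of the synaptic members that follow was not tested. The 6 synapsin probe sets had positive differences of 0.03 to 0.26 (median 0.21), the 3 Rims probe sets 0.15 to 0.25 and the 4 complexin probe sets 0.06 to 0.23. Among these, Rims3 (0.22, SE 0.07) and Syn1 (0.19, SE 0.08) had an unadjusted p under 0.05. Of 20 synaptotagmin probe sets, 13 had positive and 7 negative differences and none an unadjusted p under 0.05. Stx5, a syntaxin of the Golgi, differed by −0.24 on probe set 1367878_at (SE 0.06, adjusted p = 0.231 from limma), with 8.97, 9.08 and 9.01 in paced mated against 9.31, 9.24 and 9.21 in chamber-exposed rats, and by −0.12 on another. Snap23, the Snap protein of non-neuronal secretion, differed by −0.28 and −0.17 on its probe sets. Snap25 differed by 0.06, with a 95% confidence interval of −0.11 to 0.24.

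**Figure D2:**
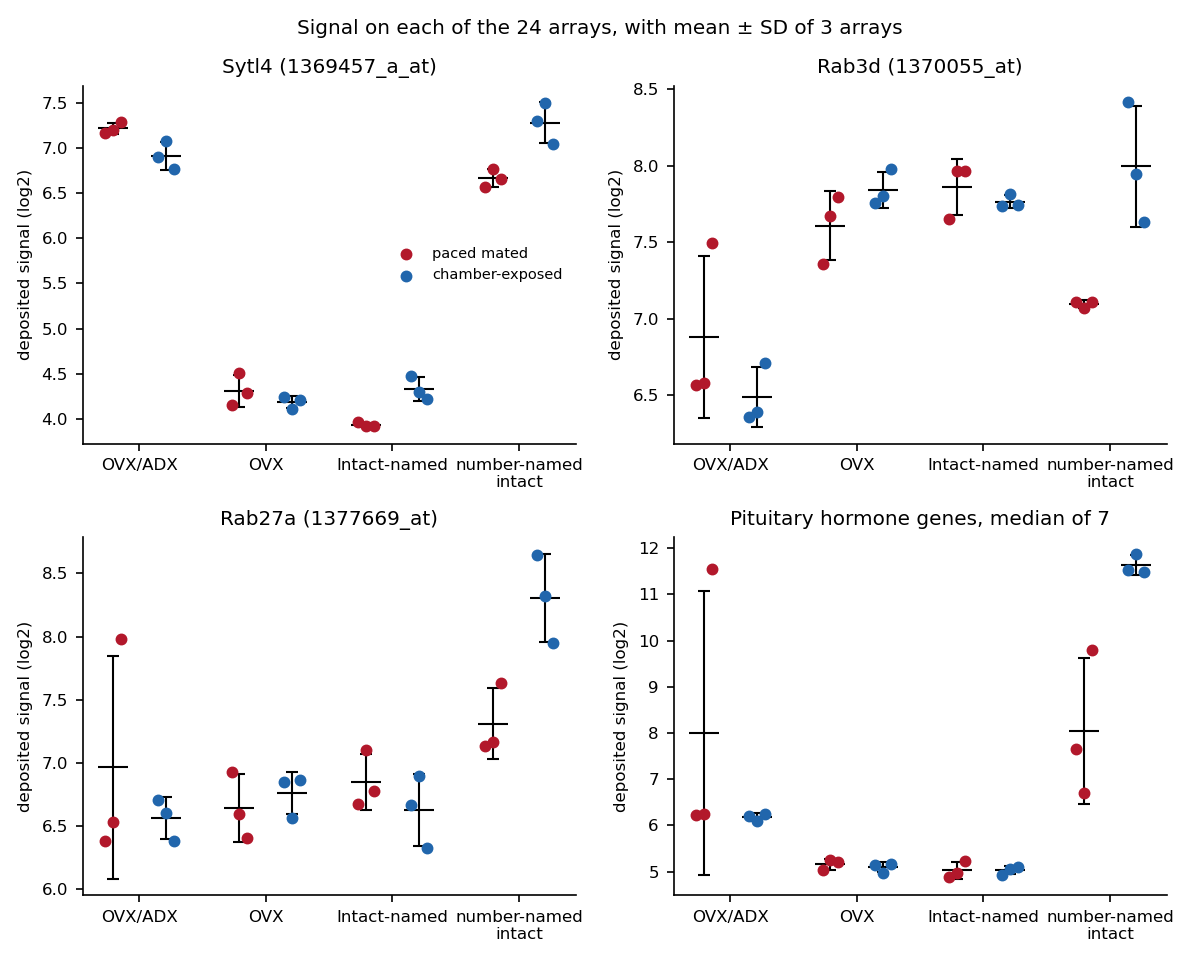
Deposited log2 signal of Sytl4, Rab3d and Rab27a and the median of 7 pituitary hormone genes on each of the 24 arrays, with paced mated arrays (red) left of chamber-exposed arrays (blue) in each set and bars for the mean ± SD of 3 arrays. On number-named arrays the paced mated points lie below the chamber-exposed points in all 4 panels, and OVX/ADX array 2541 stands above the rest of its set in the panels of Rab3d (7.49), Rab27a (7.98) and the hormones (11.54).

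On the Intact-named arrays, again no member passed an adjusted p of 0.05 (0.0148% of all probe sets did). At an unadjusted p under 0.05, 3 members were higher and 2 lower, against 3.38% and 4.62% of all probe sets. Rab27b, the Rab27 of neurons and platelets, had 8.56, 8.65 and 8.38 in paced mated and 7.96, 7.88 and 7.61 in chamber-exposed rats. That is a difference of 0.71 (SE 0.13, adjusted p = 0.317 from limma), without overlap, while its other probe set differed by 0.06 and overlapped. Sv2b, a glycoprotein of synaptic vesicles, had 13.05, 12.79 and 13.29 in paced mated and 13.50, 13.80 and 13.77 in chamber-exposed rats. The difference was −0.65 (SE 0.15, adjusted p = 0.417 from limma), and the 2 other Sv2b probe sets overlapped between the groups. Sytl4 had 3.96, 3.92 and 3.92 in paced mated and 4.48, 4.30 and 4.23 in chamber-exposed rats. Its difference was −0.40 (SE 0.10, adjusted p = 0.417 from limma), without overlap. These signals lay at percentiles of 8.28 to 14.2, under the 20th percentile that the filter asked for, which Sytl4 reached only on number-named and OVX/ADX arrays, so the value is a description of signals near the bottom of the scale. The hormone medians of the Intact-named arrays were 4.88 to 5.23 in paced mated and 4.93 to 5.11 in chamber-exposed rats. Syt6 (0.37) and Rab3b (0.28) were the other members with an unadjusted p under 0.05. Rab3d differed by 0.10 (95% confidence interval −0.17 to 0.36).

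Some of these calls depended on the model. With array weights, 3 members passed on the Intact-named arrays, Rab27b, Sv2b and Sytl4 (adjusted p = 0.0204, 0.027 and 0.0363 from limma), Sytl4 on signals under the level of the filter. In 1 fit over the 24 arrays, Rab27b and Sv2b passed (adjusted p = 0.0167 and 0.0169 from limma).

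Over both intact sets, with the set as a term, no member passed an adjusted p of 0.05, and neither did any other probe set (0%). At an unadjusted p under 0.05 there were 3 higher and 5 lower members, against 3.77% and 3.95% of all probe sets. Sytl4 had the smallest unadjusted p of the members, with a difference of −0.51 (SE 0.08, adjusted p = 0.446 from limma). It was lower in paced mated rats within each set without overlap, in the Intact-named set on the low signals just described. The permutation test within sets gave 0.005, the smallest p those permutations can give. That p rests in part on these low signals and on a gene from the study's table, so it is not read as support. Rab27b differed by 0.39 and Sv2b by −0.36, each without overlap on the Intact-named arrays alone. On number-named arrays Rab27b had 8.57, 8.64 and 8.52 in paced mated and 8.55, 8.50 and 8.45 in chamber-exposed rats. Chgb differed by −0.42 (SE 0.11, adjusted p = 0.614 from limma).

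The mating difference was compared between the intact sets (number-named minus Intact-named). No member passed, where 0.0814% of all probe sets did, and 7 members had an unadjusted p under 0.05, against 10.6% of all probe sets. The member differences with the smallest p were those of Rab27b (−0.64, adjusted p = 0.124), Rab3d (−0.997, adjusted p = 0.130) and Rab27a (−1.21, adjusted p = 0.148), all from limma. For Sytl4 it was −0.22 (95% confidence interval −0.56 to 0.13). With array weights 8 members passed here, Rab27b, Rab3d, Rab27a and Sv2b among them, and without array Intact-5 2 did.

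**Figure D3:**
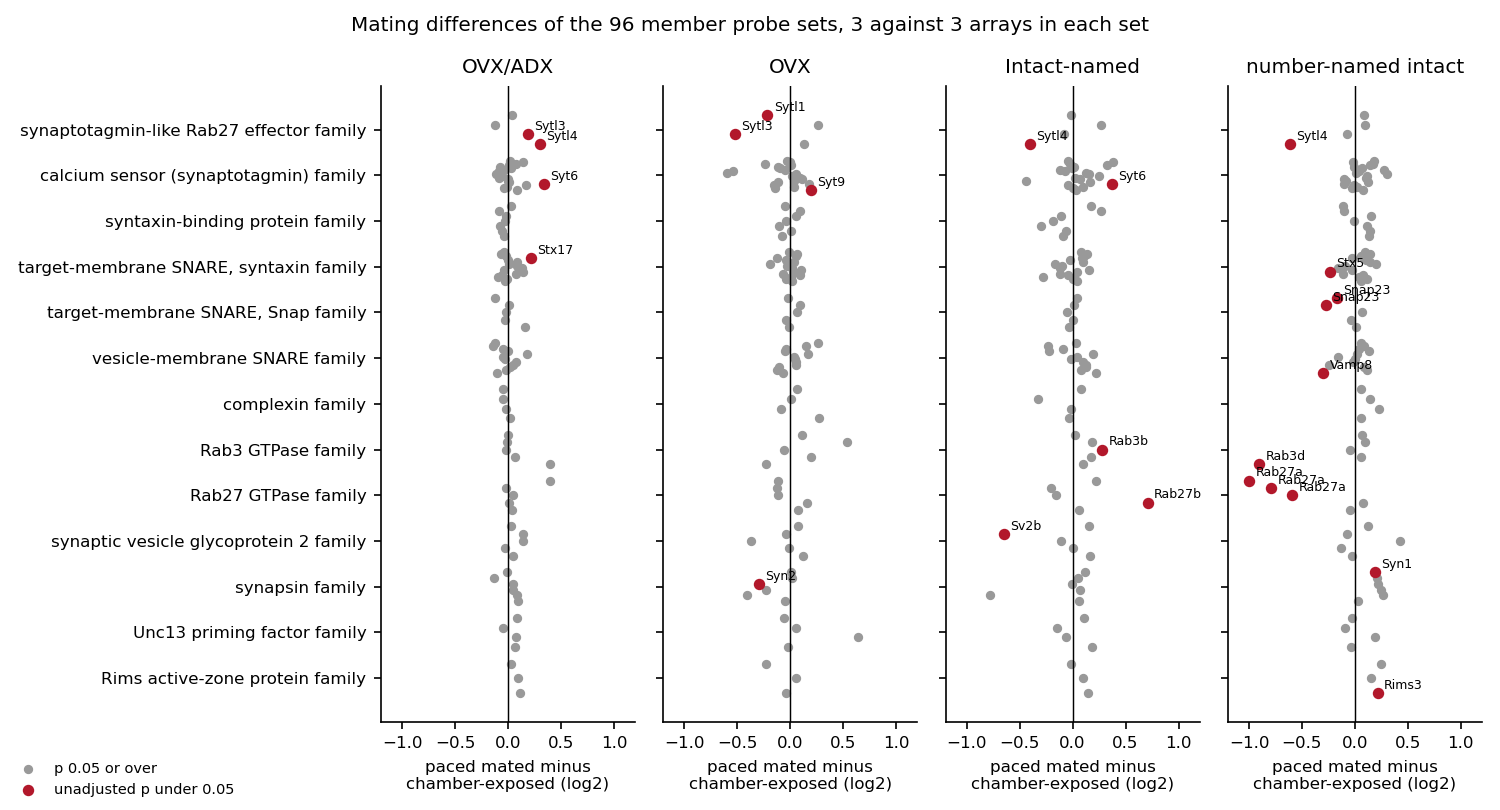
Difference of paced mated minus chamber-exposed rats (log2) for the 96 member probe sets, in rows by family, in each set of 3 against 3 arrays. Red points with gene names have an unadjusted p under 0.05: 11 on number-named, 5 on Intact-named, 4 on OVX and 4 on OVX/ADX arrays, and none of them passed an adjusted p of 0.05.

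The same question was then asked in rats without ovaries. On OVX arrays, no member and no other probe set passed an adjusted p of 0.05 (0%). At an unadjusted p under 0.05, 1 member was higher and 3 were lower, against 0.873% and 1.55% of all probe sets. Sytl3, a Rab27 effector known from immune cells, had 5.12, 4.99 and 5.31 in paced mated and 5.53, 5.62 and 5.83 in chamber-exposed rats. The difference was −0.52 (SE 0.12, adjusted p = 1 from limma), without overlap. Sytl1, another Rab27 effector, differed by −0.22 and Syn2 by −0.29, and Syt9, a calcium sensor, by 0.20, each without overlap. Sytl4, under the level of the filter on every OVX array (percentiles of 9.81 to 13.9), differed by 0.13 (95% confidence interval −0.12 to 0.38) and Rab3d by −0.23 (−0.54 to 0.07), and both overlapped between the groups. Unc13c, the Unc13 of cerebellar neurons, had the largest positive difference of the members, 0.64 (SE 0.38), with 9.59 on array OVX-1 and 7.62 to 8.32 on the other 5 OVX arrays. Without OVX-1 the difference was 0.18. The median of 7 cerebellar granule cell markers was 8.18 on OVX-1 and 5.62 to 6.46 on the others, and its part in the Unc13c value was not tested. Choroid plexus markers were lower in paced mated OVX rats, 5 of 5 with negative differences and a median of −1.33, 2 of them at an unadjusted p under 0.05.

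In OVX/ADX rats, no member and no other probe set passed an adjusted p of 0.05 (0%). Here the 4 members with an unadjusted p under 0.05 were all higher in paced mated rats, against 0.921% higher and 1.55% lower over all probe sets. Sytl4 had 7.17, 7.19 and 7.28 in paced mated and 6.89, 7.08 and 6.77 in chamber-exposed rats. These did not overlap, and the difference was 0.30 (SE 0.09, adjusted p = 1 from limma, exact permutation p = 0.1). Without arrays 2541 and 2530 it was 0.19. The other members were Stx17 (0.22), a syntaxin of autophagosomes, Sytl3 (0.19) and Syt6 (0.34, and 0.19 without chamber-exposed array 4124). Sytl3 lay at percentiles of 20.98 to 23.03 in paced mated and 17.28 to 19.83 in chamber-exposed OVX/ADX rats. Stx17 lay at 17.76 to 24.16 on the OVX/ADX arrays. Both were thus near the 20th percentile of the filter, and their differences describe low signals. Rab3d had 6.57, 6.58 and 7.49 in paced mated and 6.36, 6.39 and 6.71 in chamber-exposed rats, and Rab27a had 6.39, 6.53 and 7.98 in paced mated and 6.71, 6.61 and 6.38 in chamber-exposed rats. In each the high value was array 2541, which was also the array with the hormone median of 11.54. The differences were 0.39 for Rab3d (SE 0.25) and 0.40 for Rab27a (SE 0.39). Without array 2541 they were 0.087 for Rab3d and −0.11 for Rab27a, so that the direction of Rab27a turned.

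Differences between gland groups in the mating difference were also fitted. Between OVX and Intact-named arrays no member passed (0.0074% of all probe sets did), and 5 had an unadjusted p under 0.05, against 4.96%. Among them were Sv2b with 0.61 and Rab27b with −0.55. Sytl4 had 0.53 (SE 0.14, adjusted p = 0.836 from limma), a description only, since its signal was under the level of the filter on all 12 arrays. Between OVX/ADX and number-named arrays, a comparison added after the values had been seen, no member passed (0% of all probe sets), and 6 had an unadjusted p under 0.05, against 7.51%. Sytl4 had the smallest p, with 0.92 (SE 0.15, adjusted p = 0.3 from limma), followed by Stx5 (0.38), Rab3d (1.30) and Rab27a (1.39). Without array 2541 these were 0.99 for Rab3d and 0.89 for Rab27a, and 0.88 for Sytl4. Averaged over the 24 arrays with the set as a term, no member passed (0%) and 5 had an unadjusted p under 0.05, against 4.19%. These were Rab27b (0.24), Vamp2 (0.14 on 1371160_at, against −0.04 on its other probe set), Sv2a (0.10), Syt6 (0.20) and 1 Rab27a probe set (−0.28). Vamp2 1371160_at lay at percentiles of 12.6 to 14.7 on number-named and 12.7 to 21.2 on OVX/ADX arrays, mostly under the level of the filter. The average for Sytl4 was −0.15 (SE 0.09), and that for Rab3d −0.16 (SE 0.14).

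Genes that moved most like Sytl4 were looked for among the members, by Pearson's r of each array's deviation from the mean of its set, over 24 arrays. The 5 probe sets with the highest r were Rab27a 1384852_at (0.60), Stx5 1367878_at (0.57), Rab3d (0.57), Rab27a 1387763_at (0.56) and Snap23 1370195_at (0.52). Without the 2 arrays where Sytl4 lay farthest out, 2536 and 2543, these became 0.45, 0.45, 0.47, 0.46 and 0.39. The order then changed, since Stx3 1369308_at (0.61, against 0.48 over 24 arrays) and Sv2b 1369628_at (0.49, against 0.42) came above all 5. Arrays of a set share their normalization, and the hormone medians varied within the number-named and OVX/ADX sets as given above. The part of the hormones in these likenesses was not tested, and the values are descriptions that carry no test.

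The OVX and Intact-named arrays were taken as 1 run from their lowest signals and tested against each other, with the mating label as a term. The titles of the 2 sets begin with different numbers. Ovariectomy, estradiol priming and array set cannot be told apart in this comparison. The comparison of OVX with Intact-named arrays was the one with calls among the members: 2 of 96 passed an adjusted p of 0.05, 1 lower and 1 higher, where 1.44% of all probe sets did. At an unadjusted p under 0.05, 13 members were higher and 11 lower in OVX rats, against 9.21% and 11.8% of all probe sets. With shares of this size over all probe sets, the counts are not read as a result about the members. The median difference was −0.01 over the members and −0.001 over all probe sets. Of the 24 genes with several probe sets, 10 had probe sets of opposite sign here, and 6 did so in the mating comparison on number-named arrays.

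Cplx2, a complexin of forebrain synapses, was lower on OVX than on Intact-named arrays. It had 10.85, 11.20, 11.16, 11.25, 11.01 and 11.19 on OVX-1, -3, -5, -2, -4 and -6, against 11.50, 11.61, 11.77, 11.44, 11.66 and 11.81 on Intact-1, -3, -5, -2, -4 and -6. All 6 OVX arrays were below all 6 Intact-named arrays, with a difference of −0.52 (SE 0.09, adjusted p = 0.0222 from limma, exact permutation p = 0.005). Sytl1 was higher, with 6.58, 6.61, 6.50, 6.74, 6.76 and 6.84 on OVX arrays in the same order, against 6.20, 6.47, 6.37, 6.32, 6.36 and 6.39 on Intact-named arrays. The arrays did not overlap, and the difference was 0.32 (SE 0.06, adjusted p = 0.0363 from limma, exact permutation p = 0.005). Neither call held when limma's moderation of the variances was left out (limma fit, adjusted p = 0.0556 for Cplx2 and 0.0578 for Sytl1). The call of Sytl1 was lost without any 1 of 8 arrays, Intact-1, -2, -4 and -6 and OVX-1, -2, -3 and -4, with adjusted p up to 0.102, and that of Cplx2 without Intact-3 or OVX-4, with adjusted p up to 0.0728.

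Other release genes came close to the threshold. Rab27b differed by −0.55 (adjusted p = 0.0561), Syt5, a calcium sensor, by −0.35 (adjusted p = 0.0571) and Vamp1, the vesicle SNARE of motor and hindbrain neurons, by 0.88 on probe set 1370556_at (adjusted p = 0.0654), all from limma. Vamp1's 3 probe sets all had positive differences, 0.88, 0.40 and 0.23, each with an unadjusted p under 0.05. On probe set 1370556_at the OVX arrays spanned 9.31 to 9.60 and the Intact-named arrays 7.82 to 9.25, without overlap. Others were lower in OVX rats at an unadjusted p under 0.05, among them Syn2 (−0.52), Syt6 (−0.31) and Sv2b (−0.34). So were 2 probe sets of Syt17 (−0.45 and −0.50). Another probe set of Syn2 (0.44) and another of Sv2b (0.19) had positive differences, so the direction of these genes is not settled. Syt8 (0.29), Syt2 (0.23), Stx3 (0.21) and Stxbp2 (0.20) were among those with higher values at an unadjusted p under 0.05. Both Cplx1 probe sets had positive differences (0.21 and 0.47), opposite to Cplx2, and all 4 Sytl probe sets had positive differences, of 0.07 to 0.32. Of 12 vesicle SNARE probe sets, 11 had positive differences, and Vamp4 had −0.18 on probe set 1391494_at and 0.03 on the other. Sytl4, Vamp5 1375737_at and Sv2b 1375142_at (0.19) lay under the 20th percentile on all OVX and Intact-named arrays. Syt2 lay at percentiles of 12.3 to 21.1 there. Their directions describe low signals and are not read as support. Snap25 differed by 0.02 (95% confidence interval −0.11 to 0.16), Sytl4 by 0.11 (−0.11 to 0.33) and Rab3d by −0.09 (−0.30 to 0.12).

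Regional markers differed between the same arrays. Of 12 cortex and hippocampus markers, 10 had negative differences in OVX rats, 5 of them lower at an unadjusted p under 0.05 and 1 at an adjusted p under 0.05, with a median of −0.19. Of 11 dopamine neuron markers, 9 had positive differences (median 0.27). Slc17a6, the vesicular glutamate transporter of thalamus and brainstem from the list of 47 other release genes, was higher by 1.69 on OVX arrays (SE 0.35, adjusted p = 0.0394 from limma). It was the only gene of that list called. Whether the make-up of the dissected tissue has a part in the differences of Cplx2, Vamp1 and the other members was not tested.

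**Figure D4:**
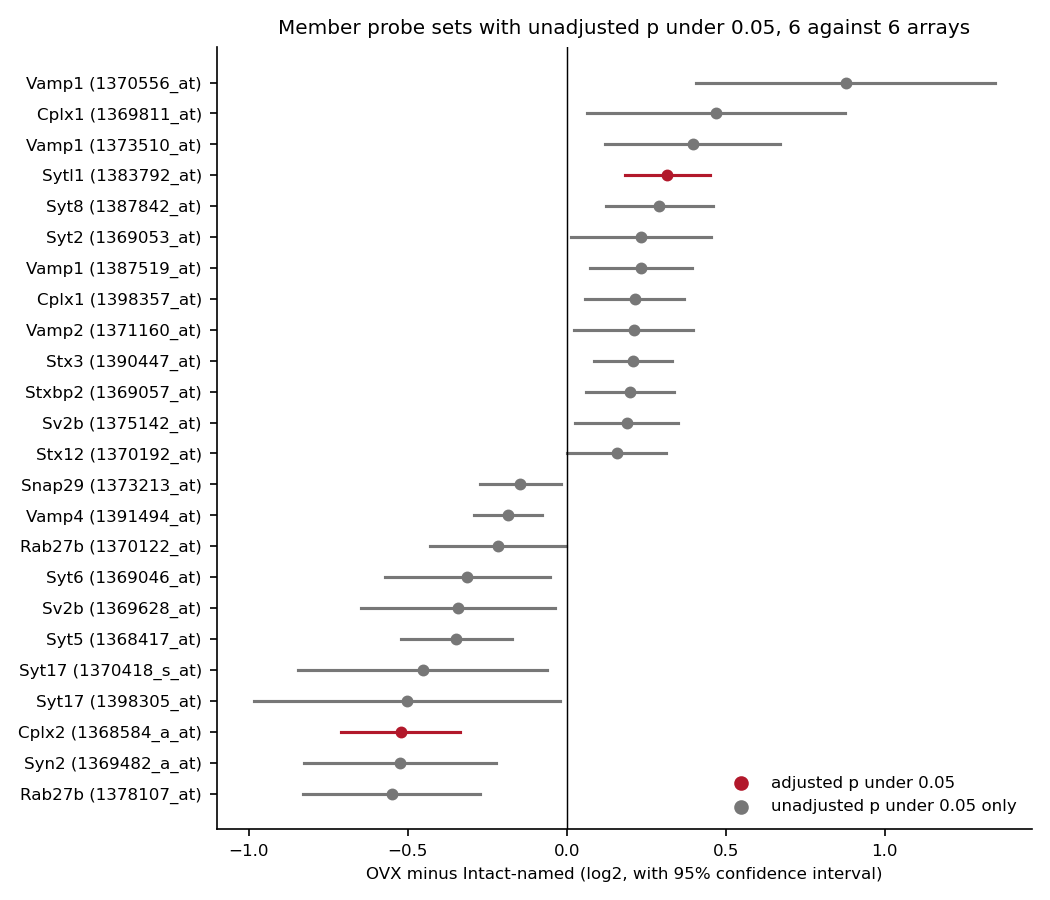
OVX minus Intact-named difference (log2, points) with its 95% confidence interval (lines) for the 24 member probe sets with an unadjusted p under 0.05, over 6 against 6 arrays. Red marks the 2 that passed an adjusted p of 0.05, Sytl1 at 0.32 and Cplx2 at −0.52.

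The Intact-named arrays differed far more from the number-named arrays than from the OVX arrays, although the Intact-named and number-named arrays are both from intact, proestrous rats. The median absolute difference over the members was 0.55 from the number-named arrays, after quantile normalization. From the OVX arrays it was 0.12, on deposited values, with member differences of −0.55 to 0.88. After quantile normalization of the 24 arrays, 4 members of 4 genes were more than 2-fold higher on Intact-named arrays without overlap, and 18 members of 16 genes more than 2-fold lower. Over all probe sets these shares were 10.8% higher and 11.3% lower. The median difference was −0.26 over the members and 0.03 over all probe sets. Across scalings, 12 of the 96 members changed sign, none of them among these 22. For 5 of the 22 the lower set lay under the 20th percentile on all 6 arrays, Syt2, Sytl4, Snap29 and Rab27a 1387763_at on Intact-named and Cplx3 on number-named arrays. They passed the filter only through other arrays and had to differ, so their differences are not read as exact sizes or as support.

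The 4 higher ones were Cplx2, Cplx3, Sv2b and Stx1a. Cplx2 averaged 11.47 ± 0.13 on Intact-named and 8.22 ± 0.28 on number-named arrays (SD, n = 6 each), a difference of 3.25. Cplx3, a complexin of retinal and some cortical neurons, averaged 7.69 ± 0.45 on Intact-named and 4.54 ± 0.15 on number-named arrays, where its median percentile was 11.5. Sv2b differed by 1.60 on 1369628_at and Stx1a, the syntaxin of synaptic release, by 1.19 on 1387360_at. Other probe sets of both genes overlapped in percentile between the sets. Stx1a 1387359_at lay at 45.5 to 71.8 on Intact-named and 54.3 to 61.8 on number-named arrays. Sv2b 1369627_at lay at 85.8 to 91.6 and 75.2 to 92.2 on the same sets, and Sv2b 1375142_at at 13.8 to 17.7 and 15.5 to 20.2. In the same arrays, 10 of 12 cortex and hippocampus markers met the same rule as higher.

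Of the 18 lower probe sets, 6 were synaptotagmins. Syt1 averaged 6.99 ± 0.22 on Intact-named and 10.55 ± 0.17 on number-named arrays (SD, n = 6 each), a difference of −3.55. Syt13 differed by −3.06, Syt11 by −2.46, Syt9 by −2.39 and Syt2 by −1.83. Sytl4 averaged 4.40 ± 0.19 on Intact-named and 6.76 ± 0.37 on number-named arrays, a difference of −2.35, and 2 Rab27a probe sets differed by −2.62 and −2.03. Of the rest, Rims3 differed by −1.31 and Unc13c by −1.19, and Vamp1 by −2.73 and −1.50 on 2 probe sets. Likewise, 8 of 11 dopamine neuron markers and 5 of 7 pituitary hormones met the rule as lower.

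Probe sets of the same gene did not always move together here. For Syt4, a synaptotagmin of dense-core vesicles, probe set 1387662_at averaged 8.51 on Intact-named and 11.61 on number-named arrays (−3.10), while 1375877_at had 10.82 to 11.36 on Intact-named and 11.51 to 11.67 on number-named arrays as deposited. Cplx1 differed by −1.87 on 1369811_at, while probe set 1398357_at had 12.21 to 12.50 on Intact-named and 12.49 to 12.86 on number-named arrays as deposited. Snap29, Rab27b, Syn2 and Rab3a likewise met the rule on only 1 of their probe sets, with −2.16, −1.32, −1.18 and −1.08. Among the higher members, so did Sv2b and Stx1a.

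**Figure D5:**
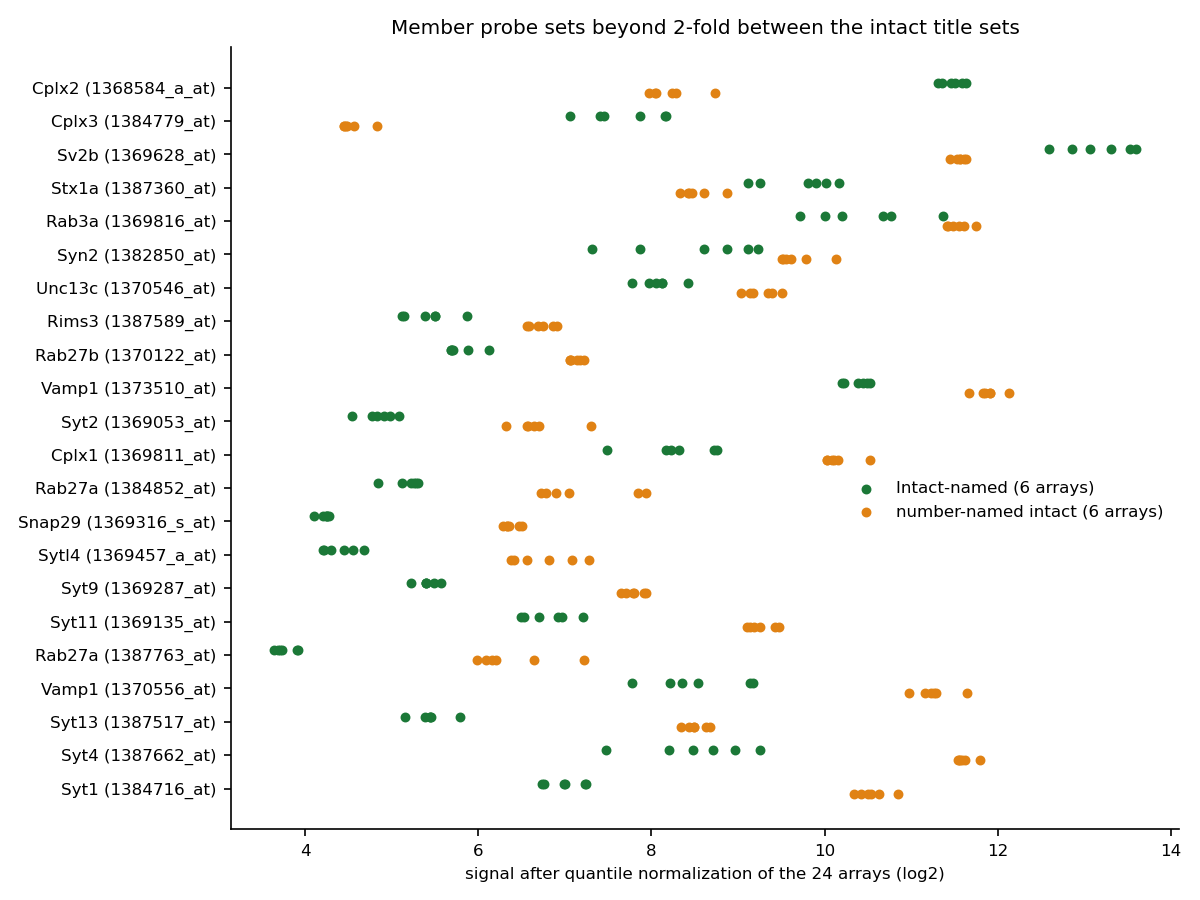
Signal after quantile normalization (log2) of the 22 member probe sets that differed more than 2-fold without overlap, with 6 Intact-named arrays (green) and 6 number-named arrays (orange) per probe set. Cplx2, Cplx3, Sv2b and Stx1a lie higher on Intact-named arrays, and the other 18 probe sets lie lower, with Syt1 at the bottom (−3.55).

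Between OVX/ADX and number-named arrays the members differed less. None was more than 2-fold higher without overlap and 2 were lower, against 2.08% and 2.05% of all probe sets. Syt7, a calcium sensor of granule release and lysosomes, averaged 5.74 ± 0.14 on OVX/ADX and 7.10 ± 0.07 on number-named arrays (SD, n = 6 each), a difference of −1.36. The other was the Rab27a probe set 1387763_at, which averaged 5.18 ± 0.34 on OVX/ADX and 6.38 ± 0.47 on number-named arrays. Sytl4 averaged 7.22 ± 0.20 on OVX/ADX and 6.76 ± 0.37 on number-named arrays. Of the 96 members, 39 changed sign between scalings, and the deposited values of all probe sets differed by a median of −0.39 between these sets, so single directions are not read here.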

How the data were processed

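Log2 signals of Affymetrix rat genome expression arrays were used as the authors deposited them. The submitters' processing notes name RMA and Affymetrix Expression Console (version 1.4). The study's methods name GCRMA instead, and those values were not used here. Probe sets were matched to genes through the platform annotation, of which 20832 had 1 symbol, 436 several and 9831 none, and to RefSeq (GRCr8) for names and promoters. All 68 member genes matched RefSeq by symbol. RMA fits all arrays of a run together, so levels from different runs are not on 1 scale. Precision is limited by how few arrays each group holds.

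The 57 control probe sets were removed. A probe set was kept where its signal reached its array's 20th percentile on 3 or more of the 24 arrays, which left 27035. Groups were taken from the array labels. Comparisons within a run were fitted with limma 3.58.1 in R 4.3.3 (lmFit and eBayes), p-values were adjusted by Benjamini-Hochberg over the kept probe sets, and the threshold was 0.05. Exact permutation tests, 2-sided, were added for named members, with 100000 resamples over the 24 arrays. Between runs, the arrays were quantile normalized together, and a member counted as different beyond 2-fold without overlap of arrays. The fits were tested on simulated data. Named members were those past the adjusted threshold, those with the smallest p in each comparison and the highest-signal gene of each family, beside Sytl4, the 5 probe sets most like it, Rab3d and, between runs, members beyond 2-fold. Others were named after their values were seen. The members and gene lists were chosen with earlier results of these data known. Alternatives were other filters, scalings, variance models, array weights, pooled fits and leaving out each array.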

Additional observations from a re-analysis of the deposited data

Results flagged for a closer look

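In sets of 6 arrays, 156 combinations of 39 named probe sets and a set were searched for an array far from the other 5, and 14 were found, where chance gives about 1 in 20. The Rab GTPases were among them. Rab3d had 7.49 on OVX/ADX array 2541 and 6.36 to 6.71 on the other 5, and Rab27a probe set 1377669_at had 7.98 on the same array and 6.38 to 6.71 on the others. Rab27a probe set 1384852_at had 4.63 on Intact-1 and 5.02 to 5.23 on the others, and Rab3b had 9.27 on number-named array 2538 and 9.41 to 9.48 on the others.

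Complexins and priming proteins were also found. Cplx1 probe set 1369811_at had 10.62 on number-named array 2538 and 10.12 to 10.25 on the others. Cplx3 had 5.13 on number-named array 2543 (4.85 to 4.94 on the others) and 6.92 on OVX-4 (7.46 to 7.68 on the others). Unc13c had 9.59 on OVX-1 (7.62 to 8.32 on the others), Unc13d 5.84 on OVX/ADX array 4125 (5.41 to 5.54) and Rims3 7.15 on OVX/ADX array 4123 (6.68 to 6.85).

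Among calcium sensors and Rab27 effectors, Syt6 had 6.29 on number-named array 2543 and 6.50 to 6.62 on the others, and Syt7 6.04 on OVX-1 and 6.69 to 6.86 on the others. Sytl3 had 5.88 on number-named array 2539 (5.54 to 5.64 on the others) and 5.63 on Intact-2 (5.21 to 5.36 on the others).

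The 4 sets make 6 pairs, and for 3 of them the difference in the mating difference was fitted with an interaction. In the other 3 pairs of sets, 117 pairs of mating differences of the 39 probe sets were looked at, and 2 had all arrays apart in opposite directions. Sytl4 differed by 0.30 between paced mated and chamber-exposed OVX/ADX rats and by −0.40, on signals under the level of the filter, in Intact-named rats. Sytl3 differed by 0.19 in OVX/ADX rats, on signals near the level of the filter, and by −0.52 in OVX rats. These sets were normalized in different runs, and the difference between them was not tested. In the fitted pairs, Sytl4 and Stx5 probe set 1367878_at were apart in opposite directions between OVX/ADX and number-named arrays, with an interaction of 0.92 for Sytl4 (SE 0.15, adjusted p = 0.3 from limma) and of 0.38 for Stx5.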

How the results depend on the processing

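Over the alternatives tried, 2026 values of single members were recomputed, of which 1977 kept their direction and side of the threshold, 13 lost the threshold, 27 passed it and 9 changed direction. These are the named members and, added after seeing the data, those with an unadjusted p under 0.05 and Rab27a 1377669_at and Unc13c in every comparison within a run or between mating differences. The 9 were values of Rab27a and Unc13c. The mating difference of Rab27a on OVX/ADX arrays ranged from −0.11 to 0.69 without single arrays (−0.11 without 2541) and was −0.20 without 2541 and 2530 together, and on OVX arrays it ranged from −0.26 to 0.0021. That of Unc13c on Intact-named arrays ranged from −0.23 to 0.12 and was 0.061 with array weights. Between OVX and Intact-named arrays, Rab27a ranged from −0.12 to 0.038 and Unc13c from −0.0036 to 0.37 (−0.0036 without OVX-1). Counts of members past an adjusted p of 0.05 moved as follows. With 1 fit over the 24 arrays, 1 member passed instead of 0 in the mating comparison of number-named arrays and 2 instead of 0 in that of Intact-named arrays. With array weights, 3 passed on Intact-named arrays, 8 in the difference between the intact sets and 4 between OVX and Intact-named arrays, where the methods' unmoderated test gave 0. Without single arrays, the counts ranged from 0 to 2 on number-named arrays (2 without array 2539), from 0 to 2 between the intact sets (2 without Intact-5), and from 0 to 4 between OVX and Intact-named arrays (0 without OVX-4, 4 without OVX-6), and stayed at 0 in the other mating comparisons. Members higher on Intact-named than on number-named arrays numbered 7 instead of 4 with array medians subtracted, and members lower on OVX/ADX than on number-named arrays 11 instead of 2 on the deposited values. The cause of these moves was not tested. Title numbers 1 to 6 did not pair the Intact-named and OVX arrays (same-number correlations of 0.02 to 0.31, 2 of 6 above 0.1, and 1 of 6 arrays closest to its own number). With the title number as a replicate block, 2 members passed between OVX and Intact-named arrays, as without it, and the adjusted p of Sytl1 was 0.0607 from limma. The low signals of Sytl4 on Intact-named and OVX arrays limit what differences could be seen there.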
